A study of Mus musculus with 18 samples.

Results

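CD2 and the SLAM family are adhesion and signalling receptors of the immunoglobulin superfamily that T-lineage cells use to engage neighbouring blood cells. CD2 binds CD48 in mice, most SLAM receptors bind a like receptor on the next cell, and their tails recruit the small adaptor SAP, encoded by Sh2d1a, which brings in the kinase Fyn. In the thymus, homotypic contacts of SLAM receptors between double-positive thymocytes are known for their part in the development of NKT cells, while CD27 and CD28 are costimulatory receptors of other families. The set described here held 9 genes, Cd2, Cd48, Slamf1, Slamf6, Slamf7, Ly9, Sh2d1a, Cd27 and Cd28, out of 22619 genes in the count table. They were chosen by name, and the choice drew on earlier results of these data: Cd2 and Slamf6 were selected on being seen higher in autonomy than in turnover at both stages. For these 9 genes the comparison of autonomy with turnover is therefore a description with no test, and no threshold was part of the choice.

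RNA was sequenced from DN3 and DP thymocytes sorted by flow cytometry out of wild-type mouse thymi grafted for 28 days. DN3 cells lack CD4 and CD8 and rearrange T-cell receptor beta genes, and DP cells are the later stage that carries both coreceptors. The 4 groups were DP autonomy with 5 libraries, DP turnover with 4, DN3 autonomy with 5 and DN3 turnover with 4. Turnover names grafts whose thymocytes are renewed by incoming progenitors, and autonomy grafts that sustain themselves with no such supply. The sources used here give neither hosts nor strains nor sex. Nor do the labels say whether libraries of one group are separate animals, and the p-values then cover the spread between these samples alone, which may be technical. Levels are in CPM, read counts scaled to a common library size, and log2 changes carry the standard error (SE) of the fit.

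Total counts ran between 5032273 and 20076446 in DP autonomy libraries, 6329039 and 24191044 in DP turnover, 7426834 and 21808512 in DN3 autonomy, and 12260295 and 14846126 in DN3 turnover. The summed level of 9 DP markers lay between 12238 and 12875 CPM in DP autonomy and between 11323 and 12516 CPM in DP turnover, against 1265 to 2074 CPM in DN3 autonomy and 1836 to 3910 CPM in DN3 turnover. That of 7 DN3 markers was 249 to 481 CPM in DP autonomy and 179.9 to 224 CPM in DP turnover, against 1729 to 3682 CPM in DN3 autonomy and 1863 to 2559 CPM in DN3 turnover. The markers thus followed the sort labels, with 1 library apart. In DN3 turnover, Cd4 was at 135 CPM and Cd8a at 385 CPM in library RP1141B, whereas the other 3 libraries of that group had 0.422 to 1.96 CPM of Cd4 and 2.53 to 7.35 CPM of Cd8a. DP autonomy library RP1135 had the highest summed level of 7 dendritic cell markers, 184 CPM. Fold changes of the members that either library moved by over 1.5 times are given with and without it. Turnover libraries came as A and B of a shared RP number, and calls lost with A and B summed into 1 sample are named.

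Cd2 encodes the receptor for CD48 (ENSMUSG00000027863, chromosome 3, 101275899 to 101287939 on GRCm38, minus strand). In DP cells Cd2 stood at 604, 500.3, 357, 484 and 329 CPM in the autonomy libraries, against 225, 201, 195 and 193 CPM in the turnover libraries. In DN3 cells it stood at 239, 237, 153, 349 and 240.4 CPM in autonomy, against 11.1, 7.49, 10.8 and 87.0 CPM in turnover. At both stages every autonomy library lay above every turnover library, and within DN3 turnover RP1141B lay far above the other 3. The group means were 455 ± 113 CPM in DP autonomy, 204 ± 14.5 CPM in DP turnover, 244 ± 69.4 CPM in DN3 autonomy and 29.1 ± 38.6 CPM in DN3 turnover (SD, n = 5, 4, 5 and 4). Autonomy over turnover was 2.21-fold in DP cells (log2 1.15, SE 0.17) and 8.33-fold in DN3 cells (log2 3.06, SE 0.65), and the DN3 value was log2 4.63 without RP1141B. The authors' deposited table gave log2 1.14 (SE 0.18) for DP and 3.11 (SE 0.74) for DN3. In order of level, DN3 turnover was lowest and did not overlap the next group, while DP turnover and DN3 autonomy overlapped, as did DN3 autonomy and DP autonomy.

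**Figure D1:**
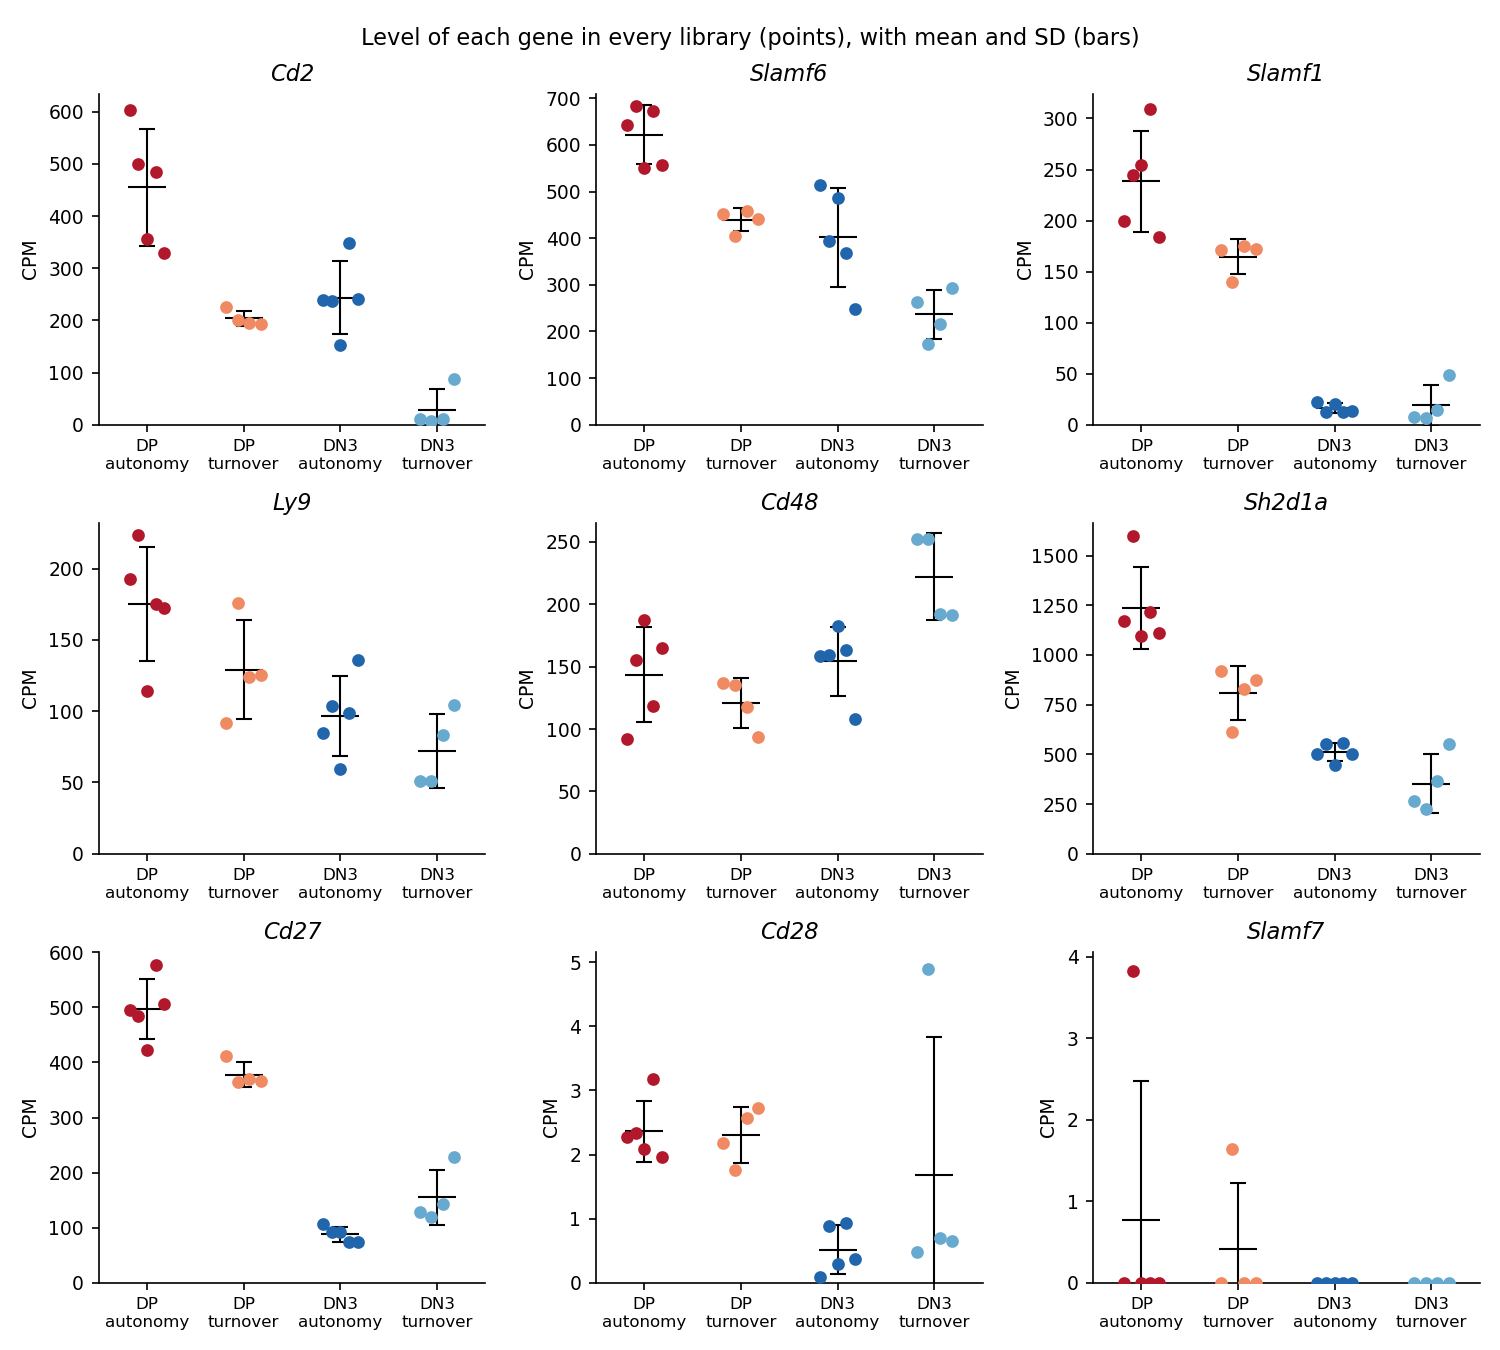
Level of each of the 9 genes in CPM (vertical axes, each starting at 0) in every library, by group; points are libraries and bars the mean and SD, cut off at 0. Cd2 in DN3 autonomy, 153 to 349 CPM, lies above all 4 DN3 turnover libraries, while Cd27 and Cd48 lie lower in DN3 autonomy than in DN3 turnover.

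The coreceptor transcripts that define the DP stage were set beside Cd2 in every library. Cd4 stood at 1.99 to 7.97 CPM in DN3 autonomy libraries, and Cd8a at 39.0 to 71.7 CPM. The ratio of Cd2 to Cd4 reads was 0.394 to 0.769 in DP autonomy, 0.230 to 0.348 in DP turnover and 30.0 to 114 in DN3 autonomy. In DN3 turnover it was 9.33, 3.82 and 25.7 in RP1140A, RP1140B and RP1141A, and 0.644 in RP1141B. The Cd2 level of DN3 autonomy libraries came with little Cd4. Their Cd8a lay above the 2.53 to 7.35 CPM of DN3 turnover RP1140A, RP1140B and RP1141A and below the 385 CPM of RP1141B. Cd8b1 stood at 69.6 to 131 CPM in DN3 autonomy, against 24.7, 7.00 and 14.7 CPM in those libraries and 615 CPM in RP1141B. The Cd2 to Cd4 ratio of RP1141B lay in the range of DP autonomy and above that of DP turnover. The part of DP cells in these levels was not tested. The ratio of Cd2 to Cd8a reads was 0.159 to 0.288 in DP autonomy, 0.0865 to 0.104 in DP turnover and 3.32 to 8.94 in DN3 autonomy. In DN3 turnover it was 1.61, 1.02 and 4.28 in RP1140A, RP1140B and RP1141A, and 0.226 in RP1141B, so that by Cd8a RP1141A lay within the DN3 autonomy range.

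**Figure D2:**
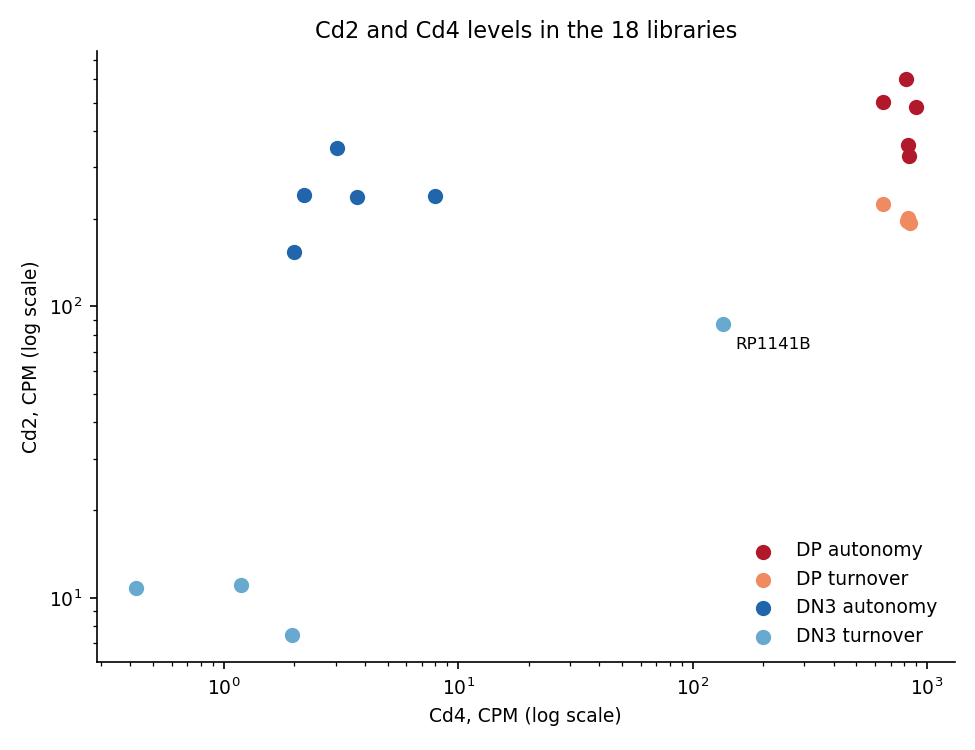
Cd2 against Cd4, both in CPM on log axes, with 1 point per library and the groups in colour. The DN3 autonomy libraries combine 153 to 349 CPM of Cd2 with under 10 CPM of Cd4, and DN3 turnover library RP1141B, marked, lies between the other DN3 turnover libraries and the DP libraries.

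DP was set against DN3 within each condition in 1 fit of all 18 libraries, a comparison that the choice of genes did not name. It uses the same libraries that led to the choice of Cd2 and Slamf6. Their stage changes and p-values, and the counts that hold them, are therefore not independent of that choice. Of the 7 members past the filter on low counts in both cell types, 5 rose and 0 fell in DP autonomy over DN3 autonomy. Of the 9896 genes past the filter in both, 24.9% were higher and 26% lower there. In turnover 6 rose and 1 fell, where 16.7% of these genes were higher and 18.7% lower. Over all 11521 genes tested the shares were 23.7% higher and 25.2% lower in autonomy, and 15.8% and 19.1% in turnover. Cd28 entered this fit through its DP libraries and is left out of these counts. Cd2 rose in DP turnover over DN3 turnover by log2 2.81 (SE 0.55, adjusted p = 0.000563 in the edgeR quasi-likelihood test), and by 4.41 without RP1141B. In autonomy the difference was log2 0.90 (SE 0.46, adjusted p = 0.114) and did not pass. It passed without DN3 turnover library RP1141B, at log2 0.91 (adjusted p = 0.000826), although that library is in neither group compared, since all groups share the estimate of spread. In bulk samples, fewer cells that carry a transcript and less of it per cell cannot be told apart.

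**Figure D3:**
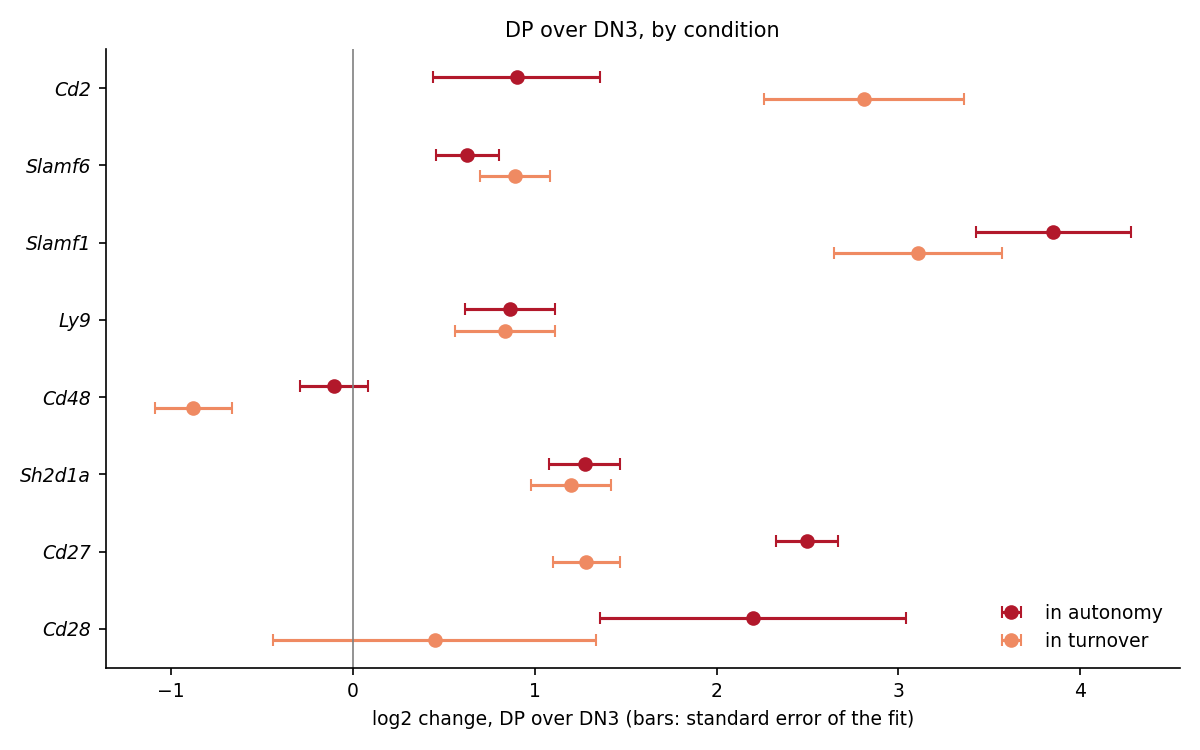
Log2 change of DP over DN3 (horizontal axis) for the 8 members in the fit, in autonomy and in turnover, with bars for the SE of the fit. With all libraries Slamf1 has the highest point, 3.85 in autonomy and 3.11 in turnover, and Cd48 is the 1 gene with both points below 0.

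The SLAM receptors lie in a cluster on chromosome 1. Ly9, Slamf7, Cd48, Slamf1 and Slamf6 spanned 365 kb, between 171588624 and 171953170 on GRCm38. Promoter windows were found in RefSeq's table of GRCm38.p6 for 5 of the 9 members, Slamf7, Cd48, Slamf1, Slamf6 and Cd27; Cd2, Ly9, Sh2d1a and Cd28 had none there. The windows of Slamf6, Slamf1 and Cd48 are shown because these neighbours had 3 different patterns over the 4 groups. Each is 300 bases long, read 5′ to 3′ on the gene's strand, with the E-box CANNTG, the motif bound by E proteins, in capitals. Slamf6 is at chr1:171917212-171917511, Slamf1 at chr1:171766882-171767181 and Cd48 at chr1:171681742-171682041, all on the plus strand.
Slamf6: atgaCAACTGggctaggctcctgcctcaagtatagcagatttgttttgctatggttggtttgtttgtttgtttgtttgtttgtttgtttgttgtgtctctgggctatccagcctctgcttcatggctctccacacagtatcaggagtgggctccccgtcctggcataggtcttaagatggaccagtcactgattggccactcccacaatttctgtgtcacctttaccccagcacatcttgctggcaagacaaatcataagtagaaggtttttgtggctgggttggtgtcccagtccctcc
Slamf1: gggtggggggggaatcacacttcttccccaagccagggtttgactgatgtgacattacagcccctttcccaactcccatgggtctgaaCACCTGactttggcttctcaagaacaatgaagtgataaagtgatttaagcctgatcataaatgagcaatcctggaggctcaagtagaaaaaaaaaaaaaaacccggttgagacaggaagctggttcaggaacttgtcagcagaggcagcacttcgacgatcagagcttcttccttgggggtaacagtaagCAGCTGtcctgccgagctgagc
Cd48: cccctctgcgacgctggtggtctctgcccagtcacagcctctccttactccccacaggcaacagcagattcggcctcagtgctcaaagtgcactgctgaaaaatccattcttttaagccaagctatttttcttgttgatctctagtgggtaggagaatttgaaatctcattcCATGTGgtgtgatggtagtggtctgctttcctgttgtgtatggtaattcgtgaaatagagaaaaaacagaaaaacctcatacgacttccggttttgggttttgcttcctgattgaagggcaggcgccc

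Slamf6 had 1 E-box, Slamf1 had 2, Cd48 1, Slamf7 2 and Cd27 5. Of 32851 promoter windows of that length, 72.3% held at least 1 and 17.6% held 3 or more. The RUNX letters TGTGGT, searched on both strands, were in Cd48 alone among the 5, overlapping its E-box, and in 16.8% of all windows. The ETS letters ACTTCCT were in none of the 5 and in 9.35% of all windows. Only these exact letters were searched, so variants such as ACTTCCG, which the Cd48 window holds, were not counted. These matches describe letters in the windows and are no evidence of binding.

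Slamf6, also called Ly108, binds itself on the neighbouring cell (ENSMUSG00000015314, 171917515 to 171953170, plus strand). It stood at 643, 683, 551, 673 and 558 CPM in DP autonomy, against 452, 404, 459 and 442 CPM in DP turnover. In DN3 cells it stood at 513, 393, 486, 368 and 248 CPM in autonomy, against 263, 174, 217 and 294 CPM in turnover. The DP groups did not overlap, whereas in DN3 cells the lowest autonomy library, RP1138, lay among the turnover libraries. Autonomy over turnover was log2 0.49 (SE 0.11) in DP and 0.75 (SE 0.22) in DN3. DP over DN3 was higher by log2 0.63 in autonomy (SE 0.17, adjusted p = 0.00452) and 0.89 in turnover (SE 0.19, adjusted p = 0.00128). As for Cd2, DN3 turnover was lowest and DP autonomy highest, and DP autonomy did not overlap the next group. The choice of both genes fixed that a turnover group came lowest and an autonomy group highest, so nothing is read from that part of the order.

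Slamf1, the founding SLAM receptor (ENSMUSG00000015316, 171767127 to 171801184, plus strand), had the largest stage difference of the members tested in autonomy. It stood at 199, 244, 255, 309 and 184 CPM in DP autonomy, against 171, 139, 176 and 172 CPM in DP turnover. In DN3 cells it stood at 22.8, 12.6, 20.8, 12.6 and 13.7 CPM in autonomy, against 7.44, 6.51, 14.1 and 48.5 CPM in turnover, the last in RP1141B. DP autonomy lay above DP turnover in every library, both lay above every DN3 library, and the DN3 groups overlapped. DP over DN3 was 14.4-fold in autonomy (log2 3.85, SE 0.43, adjusted p = 3.55e-07) and 8.63-fold in turnover (log2 3.11, SE 0.46, adjusted p = 3.39e-05). Without RP1141B the turnover value was log2 4.17, below the 4.41 of Cd2. Autonomy over turnover was log2 0.52 (SE 0.17) in DP. In DN3 it was −0.22 (SE 0.51) and turned to 0.81 without RP1141B, whose ratio of Slamf1 to Cd8a reads was 0.126. That ratio was 0.0889 to 0.151 in DP autonomy and 0.0599 to 0.0807 in DP turnover, against 0.191 to 0.449 in DN3 autonomy and 0.886 to 5.56 in the other 3 DN3 turnover libraries.

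Ly9, known as SLAMF3 or CD229 (ENSMUSG00000004707, 171588624 to 171607410, minus strand), varied more within groups. It stood at 192, 223, 114, 175 and 172 CPM in DP autonomy, against 91.4, 176, 124 and 125 CPM in DP turnover. Among DN3 libraries Ly9 was at 84.8, 104, 59.2, 98.6 and 136 CPM in autonomy, against 51.3, 50.9, 83.1 and 104 CPM in turnover. The groups overlapped at each step of the order, and autonomy over turnover was log2 0.43 (SE 0.22) in DP and 0.41 (SE 0.27) in DN3. DP over DN3 was higher by log2 0.86 in autonomy (SE 0.25, adjusted p = 0.0067) and by 0.84 in turnover (SE 0.28, adjusted p = 0.0236). The turnover call was lost without DN3 turnover RP1140A (adjusted p = 0.0835), without DN3 turnover RP1140B (0.0739) and without DP turnover RP1140B (0.0805), and with A and B summed it was at 0.0706.

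Cd48, the ligand of CD2 and a membrane-anchored protein of most blood cells (ENSMUSG00000015355, 171682009 to 171705258, plus strand), had its highest level in DN3 turnover. In DP cells Cd48 was at 91.9, 156, 187, 118 and 165 CPM in autonomy, against 137, 135, 118 and 93.5 CPM in turnover. The DN3 libraries held 158, 159, 183, 163 and 108 CPM in autonomy, against 253, 253, 192 and 191 CPM in turnover. Every DN3 autonomy library lay below every DN3 turnover library, and the DP groups overlapped. Autonomy over turnover was log2 0.24 (SE 0.22) in DP and −0.53 (SE 0.17) in DN3. DP over DN3 fell in turnover (log2 −0.88, SE 0.21, adjusted p = 0.00315; 0.0805 with A and B summed). In autonomy it was −0.10 (SE 0.19, adjusted p = 0.686). Levels per kilobase of exon were divided by the joined length of all annotated exons of a gene, which can exceed that of the transcripts made. By this measure Cd48 stood above Cd2 in DN3 turnover, at 187 ± 29.5 against 16.7 ± 22.2 CPM (SD, n = 4). In DN3 autonomy they were close, Cd2 at 140.0 ± 39.9 CPM and Cd48 at 129.8 ± 23.1 CPM (SD, n = 5). Their order there differed between libraries: in RP1135 Cd48 was at 154 and Cd2 at 88.0 CPM per kilobase.

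Slamf7, also called CRACC (ENSMUSG00000038179, 171632403 to 171653035, minus strand), was near absent and entered no test. It had 36 reads, 3.83 CPM, in DP autonomy library RP1135 and 43 reads, 1.64 CPM, in DP turnover library RP1140B, and 0 reads in the other 16 libraries. RP1135 was also the DP autonomy library with the highest dendritic cell marker sum and the 1 DP autonomy library with reads of Cd244, 105 reads. The part of other cells in these reads was not tested.

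Sh2d1a encodes SAP, the adaptor that binds the tails of SLAM receptors (ENSMUSG00000005696, chromosome X, 42502453 to 42529330, plus strand). It stood at 1172, 1597, 1095, 1217 and 1110.3 CPM in DP autonomy, against 921, 615, 828 and 875 CPM in DP turnover. DN3 cells had 502, 553, 445, 558 and 500.1 CPM in autonomy, against 264, 223, 368 and 554 CPM in turnover, the last in RP1141B. The DP groups did not overlap, and the DN3 groups overlapped through RP1141B alone. Autonomy over turnover was log2 0.60 (SE 0.14) in DP and 0.53 (SE 0.23) in DN3, the DN3 value being 0.84 without RP1141B. DP over DN3 was higher by log2 1.28 in autonomy (SE 0.20, adjusted p = 2.02e-05) and by 1.20 in turnover (SE 0.22, adjusted p = 0.000279). Its exons share 1465 bases, 26.6% of their length, with Tenm1 on the opposite strand, and the sources used here do not say whether the counting was strand-specific. Tenm1 itself averaged 47.4 ± 25.3 CPM in DP autonomy, 12.6 ± 11.7 in DP turnover, 130.4 ± 46.3 in DN3 autonomy and 77.5 ± 7.44 in DN3 turnover (SD).

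Cd27, a costimulatory receptor of the TNF receptor family that binds CD70 (ENSMUSG00000030336, chromosome 6, 125232622 to 125237010, minus strand), lay above its turnover level in DP autonomy and below it in DN3 autonomy. It stood at 495, 484, 423, 576 and 505 CPM in DP autonomy, against 411, 364, 371 and 366 CPM in DP turnover. DN3 libraries held 106, 92.8, 92.2, 74.8 and 74.4 CPM in autonomy, against 129, 119, 144 and 229 CPM in turnover. Every DP autonomy library lay above every DP turnover library, and every DN3 autonomy library lay below every DN3 turnover library. Autonomy over turnover was log2 0.38 (SE 0.11) in DP and −0.83 (SE 0.20) in DN3, and the DN3 value was −0.58 without RP1141B. The difference between these effects was log2 1.21 (SE 0.24) and was not tested, since the same contrast chose the genes. DP over DN3 was 5.65-fold in autonomy (log2 2.50, SE 0.17, adjusted p = 7.88e-10) and 2.44-fold in turnover (log2 1.28, SE 0.18, adjusted p = 2.14e-05).

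Cd28, the receptor for CD80 and CD86 (ENSMUSG00000026012, chromosome 1, 60716800 to 60773359, plus strand), was at the low end of detection. It ranged between 1.97 and 3.17 CPM in DP autonomy, 1.75 and 2.72 in DP turnover, 0.0885 and 0.939 in DN3 autonomy, and 0.475 and 4.90 in DN3 turnover. The DN3 autonomy libraries lay below all DP libraries, and 1 DN3 turnover library, RP1140B, lay above them. It did not pass the filter on low counts in DN3 cells and did in DP cells, so DP over DN3, log2 2.20 in autonomy (SE 0.84) and 0.45 in turnover (SE 0.89), is a description with no test. In the DP fit of autonomy against turnover the difference was log2 0.024 (SE 0.79).

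Counted over the set, 5 of the 9 members were higher in DP autonomy in every library than in DP turnover, Cd2, Slamf6, Slamf1, Sh2d1a and Cd27, and 0 were lower. Over all 10339 genes tested in DP cells the groups did not overlap with autonomy higher for 4.22% and lower for 3.97%. In DN3 cells 1 member, Cd2, was higher without overlap, and 2, Cd48 and Cd27, were lower. There the shares over 10766 genes were 8.26% higher and 10.1% lower. Nothing is read from these counts, since autonomy against turnover chose the genes. Per kilobase of all annotated exons, DP autonomy had Cd2 at 261 ± 64.7, Sh2d1a at 225 ± 37.5 and Cd27 at 213 ± 23.6 CPM. Cd48 was at 121 ± 32.1, Slamf6 at 57.4 ± 5.84, Ly9 at 53.1 ± 12.1 and Slamf1 at 38.7 ± 8.01 CPM (SD, n = 5). The order between genes depends on these lengths, 10832 bases for Slamf6 and 6156 for Slamf1, against 1741 for Cd2 and 1189 for Cd48. Where transcripts are shorter than the joined exons, a gene's level is understated.

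**Figure D4:**
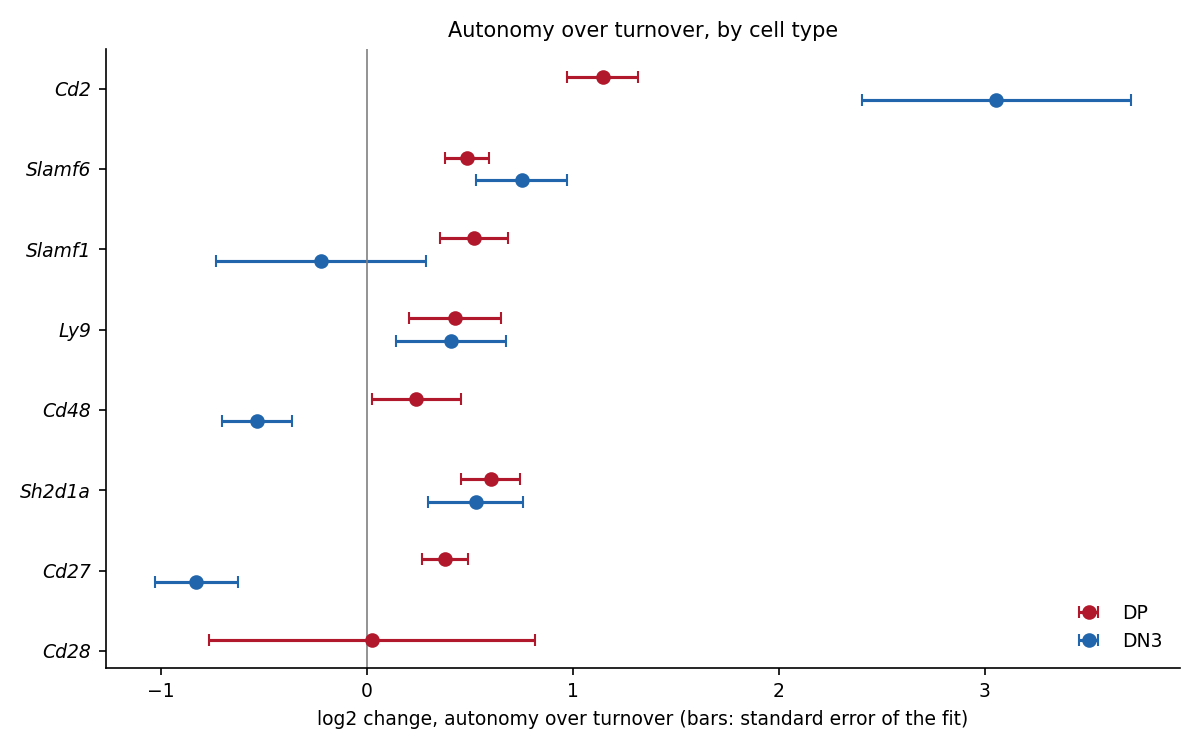
Log2 change of autonomy over turnover (horizontal axis) for the members that entered each fit, in DP and in DN3 cells, with bars for the SE of the fit. Cd2 lies right of 0 at both stages, at 1.15 and 3.06, and Cd27 lies right of 0 in DP and left of it in DN3.

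The summed levels of marker lists of other cells differed between the DN3 groups, though single genes held most of several sums. The summed level of 7 macrophage markers was 5.76 to 17.4 CPM in DN3 autonomy, against 22.3 to 38.1 CPM in DN3 turnover, where C1qc and Adgre1 were at 0. That of 7 B-cell markers was 13.5 to 42.2 CPM in DN3 autonomy, against 52.3 to 91.5 CPM in DN3 turnover, with Ms4a1, Pax5 and Cd22 at 0 in both. Cd79b made up most of it, at 26.1 ± 12.2 CPM in DN3 autonomy and 72.2 ± 16.5 CPM in DN3 turnover (SD). Dendritic cell markers summed to 2.53 to 10.3 CPM in DN3 autonomy, with Itgax and Siglech at 0, against 13.1 to 29.7 CPM in DN3 turnover, with Zbtb46 at 0. In DN3 turnover Lyz2 held most of the macrophage sum and H2-Ab1 most of the dendritic cell sum, averaging 26.3 and 19.0 CPM. Stromal and epithelial markers, 7 in all, summed to 73.5 to 139 CPM in DN3 autonomy, against 181 to 216 CPM in DN3 turnover. Nearly all of that sum was Epcam, at 42.6 ± 22.7 against 100.8 ± 11.9 CPM, and Pecam1, at 53.0 ± 8.62 against 93.1 ± 8.69 CPM (SD). Krt5 was at 0 in both groups, and Krt8, Col1a1, Col3a1 and Cdh5 averaged at most 0.864 CPM. Gamma-delta lineage genes summed to 2069 to 3147 CPM in DN3 autonomy, against 3426 to 4382 CPM in DN3 turnover. The 7 NK-cell markers summed to 1835 to 2525 CPM in DN3 autonomy, against 1226 to 1702 CPM in DN3 turnover, with Klrd1 and Klrk1 at 0 in both. Most of that sum was Gzma, at 2051 ± 278 CPM in DN3 autonomy and 1311 ± 209 CPM in DN3 turnover, and Nkg7 went the other way, at 18.7 ± 26.2 CPM in DN3 autonomy and 142 ± 23.0 CPM in DN3 turnover (SD, n = 5 and 4). In DP cells macrophage markers summed to 20.7 to 137 CPM in autonomy, against 3.39 to 35.6 CPM in turnover. The part of these cells in the member levels was not tested.

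The other genes of the pathway, 102 in the table, were tested in the same fits. In DN3 cells 7 of 81 tested were higher in autonomy and 15 lower, or 8.64% and 18.5%, beside 6.53% and 8.35% of all genes; their median log2 change was −0.37, against −0.046 over all genes. In DP cells 4 of 77 were higher and 0 lower, beside 0.861% higher and 0.861% lower of all genes, with a median of 0.22 against −0.016. At an unadjusted p under 0.05, 20 were higher and 1 lower in DP autonomy, and DESeq2 and voom called 8 and 7 higher and 0 lower. Without DN3 turnover RP1140A the DN3 counts were 2 higher and 8 lower, and without DN3 autonomy RP1137 they were 4 and 9. The DP count was 1 higher without DP turnover RP1140B, and 2 without DP turnover RP1141A, DP turnover RP1141B or DP autonomy RP1133. With DP set against DN3, 55 of 84 were higher and 10 lower in autonomy, or 65.5% and 11.9%, beside 23.7% and 25.2% of all genes. In turnover 37 were higher and 12 lower, or 44.0% and 14.3%, beside 15.8% and 19.1%. Of the 74 that passed the filter in both cell types, 53 were higher and 7 lower in autonomy, and 37 higher and 10 lower in turnover. These are 71.6% and 9.46% in autonomy, beside 24.9% and 26% of the 9896 genes past the filter in both. In turnover they are 50% and 13.5%, beside 16.7% and 18.7%.

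Among the receptors themselves, Cd84, the SLAM receptor between Slamf1 and Slamf6, fell in DN3 autonomy. It stood at 42.6, 33.5, 39.2, 40.6 and 41.5 CPM in DN3 autonomy, against 77.0, 62.6, 84.5 and 112 CPM in DN3 turnover, with no overlap (log2 −1.10, SE 0.18, adjusted p = 0.00274). In DP cells it averaged 238 ± 30.2 CPM in autonomy and 191 ± 19.0 CPM in turnover (SD, n = 5 and 4). DP over DN3 was higher by log2 2.59 in autonomy (adjusted p = 2.78e-10) and 1.18 in turnover (adjusted p = 2.51e-05). Cd244, the receptor 2B4 of NK cells, stayed at or below 11.2 CPM in every library and was at 0 in at least 1 library of each group. Slamf8, Slamf9 and the SAP relatives Sh2d1b1 and Sh2d1b2 had no reads in any library.

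Of the 13 kinases, phosphatases and adaptors downstream of SAP, 1 was higher and 1 lower in DN3 autonomy and 0 in DP autonomy. Fyn, the kinase that SAP recruits, averaged 44.8 ± 14.3 CPM in DN3 autonomy and 22.1 ± 8.91 CPM in DN3 turnover (log2 1.01, SE 0.31, adjusted p = 0.0431), and lost the call without any 1 of 7 of the 9 DN3 libraries. Of the 13 partners of the CD2 tail and proximal kinases, 1 was higher in DN3 autonomy and 2 in DP autonomy, with 0 lower. Zap70, the kinase bound to phosphorylated receptor chains, was at 235 ± 42.3 CPM in DN3 autonomy and 132 ± 42.4 CPM in DN3 turnover (log2 0.83, SE 0.21, adjusted p = 0.0224), and lost the call without any 1 of 5 libraries. Lat, the membrane adaptor that Zap70 phosphorylates, was at 2848 ± 212 CPM in DP autonomy and 1723 ± 60.1 CPM in DP turnover (log2 0.71, SE 0.08, adjusted p = 0.00215), a call held without each library in turn. Lck, the kinase bound to CD4 and CD8, was at 4749 ± 299 CPM in DP autonomy and 3613 ± 150.2 CPM in DP turnover (log2 0.38, SE 0.07, adjusted p = 0.0163), and lost the call without turnover library RP1140B.

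Of the 20 other adhesion and costimulatory proteins, 18 were tested in DN3 cells, with 1 higher in autonomy and 6 lower. Cd53, a tetraspanin, was at 15.4 ± 8.27 CPM in DN3 autonomy and 91.7 ± 25.9 CPM in DN3 turnover (log2 −2.59, SE 0.34, adjusted p = 0.000645). Cd96, a receptor for nectin-like ligands, was at 80.8 ± 11.1 CPM in DN3 autonomy and 253 ± 44.7 CPM in DN3 turnover (log2 −1.66, SE 0.16, adjusted p = 0.00012). Cd160, a receptor that binds HVEM, was the 1 higher, at 24.1 ± 3.26 CPM in DN3 autonomy and 10.5 ± 2.77 CPM in DN3 turnover (log2 1.19, SE 0.25, adjusted p = 0.00887). These 3 calls held without each library in turn. In DP cells 1 of 18 was higher and 0 lower: Cd81, a tetraspanin, at 263 ± 52.6 CPM in DP autonomy and 150.2 ± 13.1 CPM in DP turnover (log2 0.79, SE 0.16, adjusted p = 0.0301), a call lost without any 1 of 5 libraries.

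Of the TNF receptor family and its partners, 1 was higher and 3 were lower of 13 tested in DN3 autonomy, and 0 of 12 in DP autonomy. Tnfrsf1b, the second TNF receptor, was at 6.96 ± 1.55 CPM in DN3 autonomy and 18.1 ± 6.82 CPM in DN3 turnover (log2 −1.38, SE 0.33, adjusted p = 0.0154; 0.0656 without turnover library RP1140A). Of the CD28 family and its partners 0 were higher and 2 lower of 8 in DN3 autonomy, and 0 of 8 in DP autonomy. Of the genes induced at beta-selection, 2 were higher and 1 lower of 12 in DN3 autonomy. Ccnd3, the cyclin that thymocytes need to expand at that step, was at 684 ± 153 CPM in DN3 autonomy and 334 ± 68.2 CPM in DN3 turnover (log2 1.02, SE 0.19, adjusted p = 0.0049). Egr1, an early response factor, was at 7.61 ± 5.83 CPM in DN3 autonomy and 24.5 ± 9.60 CPM in DN3 turnover (log2 −1.68, SE 0.51, adjusted p = 0.042), and lost the call without any 1 of 7 libraries. In DP cells 1 of 11 was higher: Trac, the constant segment of the T-cell receptor alpha chain, at 807 ± 119.7 CPM in DP autonomy and 532 ± 48.0 CPM in DP turnover (log2 0.59, SE 0.12, adjusted p = 0.0341), lost without any 1 of 7 libraries. With A and B summed, adjusted p was 0.103 for Fyn, 0.0756 for Zap70, 0.146 for Egr1, 0.118 for Lck, 0.175 for Cd81 and 0.171 for Trac, none of which passed. In 1 fit of all 18 libraries it was 0.656 for Cd160, 0.0938 for Fyn, 0.2004 for Tnfrsf1b, 0.1104 for Lck, 0.248 for Cd81 and 0.694 for Trac, and Lck was at 0.0668 with no filter. Of the NKT lineage genes 1 was higher and 1 lower of 3 in DN3 autonomy, and 0 of 2 in DP autonomy. In DP autonomy the lists downstream of SAP, of the TNF receptor family, of the CD28 family and of the NKT lineage, with 0 calls by edgeR, DESeq2 or voom, held 2, 1, 1 and 1 genes higher and 0 lower at an unadjusted p under 0.05. In DN3 autonomy the partners of the CD2 tail held 4 lower at that level and the CD28 family 0 higher, with 0 calls in those directions by DESeq2 or voom.

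Within 500 kb of the SLAM members lay 42 other genes of the table. Of 27 tested in DN3 cells, 0 were higher in autonomy and 4 lower, or 14.8%, beside 6.53% higher and 8.35% lower of all genes. Cd84 was among the 4, with Ppox at log2 −0.80 (SE 0.18, adjusted p = 0.0116) and Dcaf8 at −0.68 (SE 0.15, adjusted p = 0.0109). Ppox encodes the protoporphyrinogen oxidase of haem synthesis, and its call was lost without DN3 turnover library RP1140A, at adjusted p = 0.0523; with A and B summed Ppox and Dcaf8 were both at 0.0575. Of 26 tested in DP cells, 0 passed in either direction, while 2 were higher and 4 lower at an unadjusted p under 0.05; DESeq2 called 1 lower and voom 0. In DN3 cells 1 was higher at an unadjusted p under 0.05 and 1 by DESeq2, and 0 by voom. With DP set against DN3, 11 of 29 were higher and 3 lower in autonomy, or 37.9% and 10.3%, beside 23.7% and 25.2% of all genes. In turnover 4 were higher and 2 lower, or 13.8% and 6.90%, beside 15.8% and 19.1%. The median log2 change of these neighbours was 0.50 in autonomy and −0.046 in turnover, against −0.0030 and −0.039 over all genes.

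Rises among the neighbours in DP autonomy over DN3 autonomy included Gm10521 (log2 2.73, SE 0.53, adjusted p = 0.000257) and Cd84. Pea15a, at 2.48 CPM in DP autonomy and 0.207 CPM in DN3 autonomy, passed the filter in DP cells and not in DN3 cells. Its log2 3.52 (SE 1.22), which was 6.07 without DN3 autonomy RP1133 and 2.97 without DP autonomy RP1135, is given with no test although it is counted among the 11. Falls included Tomm40l (log2 −1.49, SE 0.25, adjusted p = 5.98e-05) and Sdhc (log2 −0.76, SE 0.20, adjusted p = 0.00418). Sdhc encodes a subunit of a respiratory complex, and Tomm40l a relative of the mitochondrial import channel. In turnover the named rises were Gm10521 (log2 3.04), Cd84 (1.18) and Arhgap30 (1.12, SE 0.16, adjusted p = 2.36e-05). The falls in turnover were Sdhc (log2 −0.61, adjusted p = 0.0416, lost without any 1 of 10 libraries) and Ufc1 (log2 −0.57, adjusted p = 0.0173, lost without DN3 turnover RP1141B or DP turnover RP1141A), and with A and B summed these were at adjusted p = 0.0756 and 0.178. Sdhc was also at 0.0507 with no filter and 0.102 in the 2 groups alone.

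**Figure D5:**
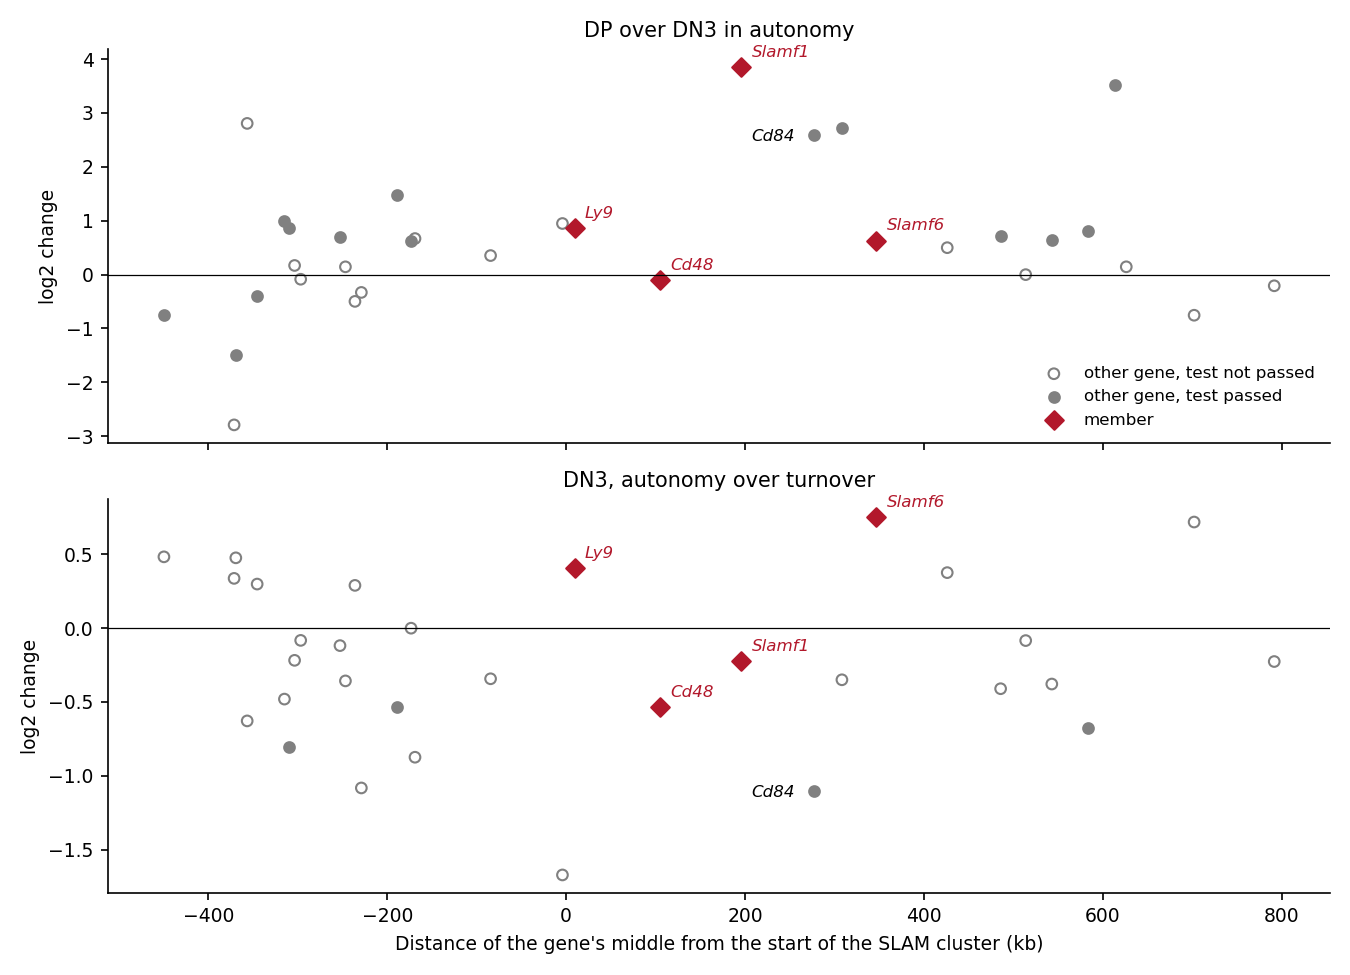
Log2 change of genes within 500 kb of the SLAM members by the distance of the gene's middle from the start of the cluster in kb (horizontal axis), for DP over DN3 in autonomy (upper panel) and for DN3 autonomy over turnover (lower panel). Diamonds are members, filled grey points other genes that passed the edgeR test, and open points those that did not; Slamf6 and Cd84 lie on opposite sides of 0 in the lower panel.

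Likeness to Cd2 and Slamf6 was measured as the mean absolute difference of log2 CPM over the 18 libraries, each gene centred on its own mean, among 8114 genes with a mean of at least 10 CPM. The nearest to Cd2 were P2rx1 (0.73), Ikzf3 (0.77), Sgk1 (0.79), H2-Q1 (0.80) and Trbv31 (0.82), where the median gene was at 1.48. P2rx1 encodes an ATP-gated channel and Ikzf3 the transcription factor Aiolos. P2rx1 averaged 144 CPM in DP autonomy, 77.5 in DP turnover, 41.3 in DN3 autonomy and 12.9 in DN3 turnover. H2-Q1 has near-identical family members, so its counts are uncertain. The nearest to Slamf6 were Msn (0.22), Dck (0.22), Actb (0.22), Wasf2 (0.25) and Atp6v1e1 (0.25), with a median over genes of 0.67. Msn, Actb and Wasf2 encode moesin, beta-actin and an actin regulator, and Actb averaged 12089 CPM in DP autonomy, 8452 in DP turnover, 7775 in DN3 autonomy and 5626 in DN3 turnover. Of the other members, Sh2d1a ranked 29 and Slamf6 62 in nearness to Cd2, while Ly9 ranked 113, Cd27 1153, Slamf1 1568 and Cd48 6018. In nearness to Slamf6, Sh2d1a ranked 94, Ly9 274, Cd48 3801, Cd27 4684, Cd2 6780 and Slamf1 7638, so that Cd2 lay farther from Slamf6 than the median gene did. The measure takes in the size of a gene's changes as well as their pattern. Cd2 and Slamf6, 1.06 apart in both rankings, were both lowest in DN3 turnover and highest in DP autonomy, where the choice of genes fixed the condition at each end. These distances describe 18 libraries that share cell type and condition, and carry no test.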

How the data were processed

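RNA was measured in 18 libraries of DN3 and DP thymocytes sorted from grafted thymi, with oligo-dT beads and Pico Nextera libraries, per the labels' protocols. The authors deposited a table of raw counts, whole numbers of reads for each Ensembl gene; HISAT2, featureCounts and DESeq2 are named in the submitters' processing notes, with builds mm10 and GRCm38, and the sources used here give no versions. The authors also deposited a DESeq2 table per cell type, whose log2 fold changes and SE are quoted once for Cd2; its p-values and Wald scores, also deposited by the authors, were not used. Of 22619 identifiers, 22601 matched GENCODE M21.

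CPM were computed from the counts with TMM factors over all libraries. The quasi-likelihood test of edgeR 4.0.16 in R 4.3.3 was run with TMM and filterByExpr, and p-values were adjusted by Benjamini-Hochberg over all genes tested, at a threshold of 0.05. The autonomy and turnover libraries were compared within the 9 libraries of each cell type, and DP with DN3 in 1 fit of 18 libraries with 4 group means. The fit was tested on simulated counts. Of the members, 7 passed the filter in DN3, 8 in DP and 8 in the 18-library fit. Members, gene lists, naming rule and alternatives were chosen with earlier results of these data known. The text names all members, per autonomy comparison up to 4 pathway genes per direction with at least 10 CPM in the higher group, all other SLAM receptors, up to 3 neighbours per direction within 500 kb (1 result is not reported here), and the 5 genes nearest to Cd2 and to Slamf6. No pair of libraries within a group agreed within sampling noise. Alternatives were DESeq2 1.42.0, voom in limma 3.58.1, DESeq2 size factors, no filter, summed A and B libraries, a replicate block, other sets of libraries and leaving out each library.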

Additional observations from a re-analysis of the deposited data

Results flagged for a closer look

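Of 34 groups of 4 or 5 libraries examined for the 9 genes, 7 held a library far from the rest by Dixon's criterion. Chance gives this in about 1 in 20 groups if values are independent and normally distributed, while these groups share libraries. The Slamf7 flags had reads in 1 library of the group and 0 in the rest, which meets the criterion by construction. The number of flags is therefore not set against that rate. In DN3 turnover, Cd2 was at 87.0 CPM in RP1141B, the library with 135 CPM of Cd4, and Cd28 was at 4.90 CPM in RP1140B, on 70 reads. In DP autonomy, RP1135 stood apart for Sh2d1a, at 1597 CPM, and for Slamf7, at 3.83 CPM. In DP turnover, Slamf1 was at 139 CPM in RP1140B and Cd27 at 411 CPM in RP1140A, and Slamf7 was at 1.64 CPM in RP1140B.

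Cd27 was flagged because every DP autonomy library lay above, and every DN3 autonomy library below, the turnover libraries of its cell type. The autonomy effect in DP exceeded that in DN3 by log2 1.21, a difference that was not tested.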

How the results depend on the processing

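In 400 refits of the members' DP over DN3 changes, 384 kept direction and side of the threshold. Of the rest, 11 lost the call, 4 gained it and 1 reversed. These counts include Cd28, whose change is only described because it entered the fit through its DP libraries. Of the 11 losses, 6 were Cd28 in autonomy. The reversal was Cd48 in autonomy, to log2 0.021 without DP autonomy replicate RP1133, and as low as −0.22 without another library. Cd2 in autonomy gained the call with voom (adjusted p = 0.00328), in the 2 groups alone (0.00208), with A and B libraries summed (0.0288) and without RP1141B (0.000826).

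Reversed descriptions, autonomy over turnover: Slamf1 in DN3, to 0.28 with voom and between −0.51 and 0.81 leaving out 1 library, with 0.81 without RP1141B; Cd28 in DP, between −0.11 and 0.11. Leaving out 1 library, Cd2 in DN3 ran between log2 2.74 and 4.63, and members higher in DN3 without overlap between 1 and 3.

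Genes called numbered 1602 in DN3 and 178 in DP for autonomy over turnover; leaving out 1 library they ran between 811 (without DN3 turnover RP1140A) and 1784 in DN3 and between 33 (without DP turnover RP1140B) and 252 in DP. With A and B summed they were 507, 499 of them among the 1602, and 16; in 1 fit of 18 libraries 1006 and 279; DP counts were 736 with DESeq2 and 434 with voom. Summed libraries gave 2170 against 4021 for DP over DN3 in turnover, with 0 members lower there and 2 members higher without overlap in DN3 autonomy.

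Pathway genes in DN3, 7 higher and 15 lower, were 2 and 7 when summed, and 4 higher in the 18-library fit; leaving out 1 library they ran between 2 and 8 higher and 8 and 16 lower. In DP, 4 higher and 0 lower, they were 8 higher with DESeq2, 7 with voom, 1 when summed, and 1 higher and 1 lower in the 18-library fit; 1 was lower with no filter, and leaving out 1 library they ran between 1 and 5 higher and 0 and 1 lower.

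Same-numbered DN3 and DP libraries did not deviate together (8 pairs, r between −0.018 and 0.057, 3 best with their own number). The labels do not say whether they share a graft, and these values cannot tell, since shared effects may be small. With the replicate block, Cd28 in autonomy was at log2 2.80, given with no test. None of the members that passed the filter in both cell types changed its call. Depth limits Cd28, at 1 to 70 reads a library, and Slamf7.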
